A study of Arabidopsis thaliana with 8 samples.

Results

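Ribosome occupancy per mRNA was described for dark-grown seedlings of Arabidopsis thaliana, as the ratio of ribosome-protected reads to mRNA reads in the coding sequence (CDS) of each gene. The genes were nuclear loci (AT1G to AT5G) with at least 50 mRNA CDS reads in both dark repeats, which 16082 of 27415 genes in the tables met, out of 27205 nuclear ones. All 16082 passed the filter on low counts and were tested. Seedlings of the Columbia-0 accession were 4 days old and had been kept in darkness on MS medium, which gives the pale, elongated etiolated form. Ribosome-protected mRNA is what remains of a polysome extract after digestion with RNase I, and the mRNA libraries hold purified, chemically fragmented messenger RNA. The 4 groups of 2 libraries were ribosome-protected dark, mRNA dark, and the same pair after 4 h of white light (ribosome-protected light, mRNA light), all of one accession with no other genotype or agent. The material was whole seedlings, so fewer cells of a type and less RNA per cell cannot be told apart.

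In ribosome profiling, each ribosome shields a short stretch of mRNA from nuclease, so the reads of a gene count ribosomes while the matched mRNA reads count transcripts. Ribosomes usually load at the cap, scan the 5′ leader and begin at the first suitable AUG, and a short open reading frame upstream of the main one (uORF) can take up scanning ribosomes. In etiolated seedlings, elongation, wall building and maintenance of the etioplast dominate, and light starts the assembly of the photosynthetic apparatus.

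The dark ribosome-protected libraries held 4843438 CDS reads in repeat 1 and 14974871 in repeat 2, and the dark mRNA libraries 32466290 and 33338709. A member had a median of 76 and 249 ribosome-protected reads in repeats 1 and 2, against 614 and 792.5 mRNA reads, and 1133 and 231 members had fewer than 10 ribosome-protected reads. CDS took 95.8 and 97.5% of ribosome-protected reads against 80.7 and 80.8% of mRNA reads, and 3′ trailers 1.63 and 0.566% against 14 and 14.1% (95% Wilson intervals within 0.0175 percentage points, for counting error only). The dark label held against its markers, with 1 clear difference between repeats. PORA, the light-dependent chlorophyll enzyme of etiolated tissue, stood at 83.3 and 563 CPM (counts per 1000000 scaled reads) in dark mRNA and at 4.31 and 8.39 CPM in light mRNA. LHCB2.2, an antenna protein of greening tissue, stood at 6.79 and 5.45 CPM in dark mRNA and at 375 and 584 CPM in light mRNA. TT4, the chalcone synthase that light induces, stood at 0.949 CPM in dark repeat 1 and 32.7 CPM in dark repeat 2. Dark repeat 2 was thus higher than repeat 1 in both an etiolated marker and a light-induced one.

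Log2 occupancy had a median of -0.05 in repeat 1 and 0.04 in repeat 2, and it is a relative value, since library scaling places the typical gene near 0. From the 5th to the 95th percentile it ran from -1.71 to 1.05 in repeat 1 (6.8-fold) and from -1.76 to 1.16 in repeat 2 (7.6-fold). The distribution leaned to the low side, with the 1st percentile at -2.81 and -3.41 and the 99th at 1.42 and 1.59. Across the 16082 genes, both repeats correlated at r = 0.86 (rank correlation 0.859). These points are genes within 2 pairs of libraries and not independent replicates. Both repeats had the same sign for 13441 genes (83.6%), and the median distance between them was 0.27, with 721 genes over 1. At the edge of the read minimum, 164 loci with 50 to 54 reads in the lower mRNA library had medians of -0.02 and -0.03, and 224 loci with 45 to 49 reads, which were not members, had -0.06 and -0.04.

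By the quasi-likelihood test of edgeR, adjusted after Benjamini and Hochberg, 151 members had higher and 757 lower ribosome-protected than mRNA reads in the dark. Over all 19823 genes tested, 0.787% were called higher and 3.87% lower, against 0.939 and 4.71% of the members. The lowest adjusted p was 0.0266, and 4469 members had an unadjusted p under 0.05 (1700 higher, 2769 lower). The calls depended on how repeats were treated. With the repeat number as a block, the pairing by which the comparison is defined, 3524 members were called higher and 3885 lower (21.9 and 24.2% of members, against 19.2 and 21.1% of all genes tested), including all 908 calls made without it. DESeq2 called 993 higher and 1618 lower members (6.17 and 10.1% of them, against 5.41 and 8.74% of all genes with an adjusted p). Leaving out any 1 of the 8 libraries, or fitting the 4 dark libraries without a block, left 0 calls in edgeR, with 2859 to 4104 and 3392 members at an unadjusted p under 0.05. Counts, standard errors (SE) and adjusted p below are without the block unless named. Such an SE also holds the spread in abundance between repeats, so it does not measure the spread of occupancy between them. Nothing in the labels makes the repeats separate cultures, and every p-value here refers to the spread between these libraries alone, which may be technical.

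**Figure D1:**
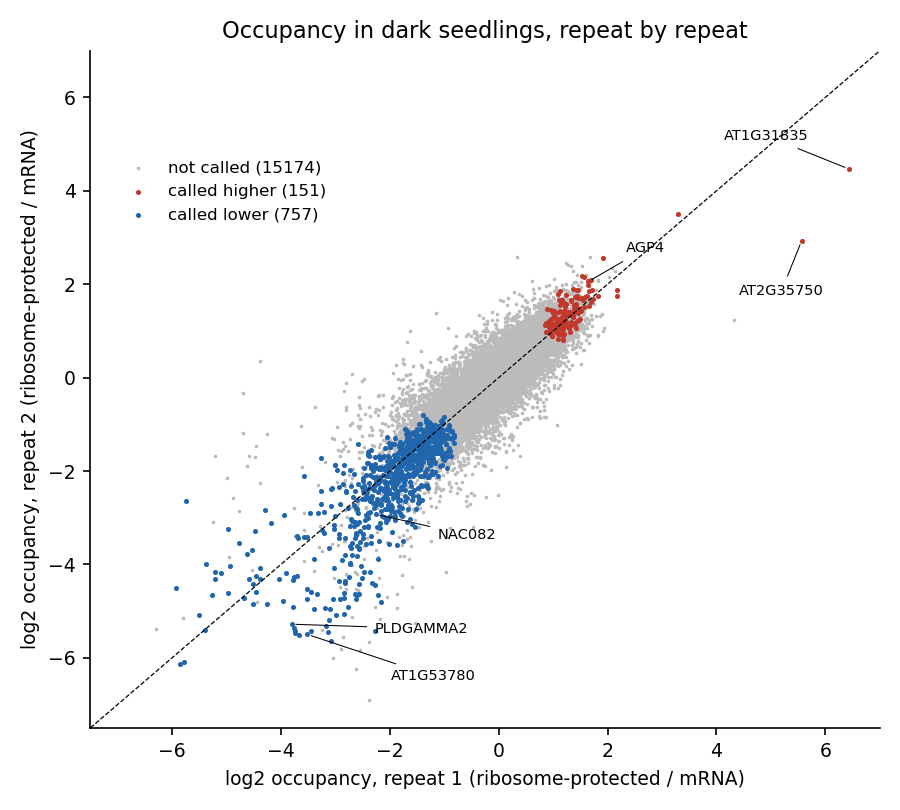
Log2 occupancy of each of the 16082 genes in repeat 1 (horizontal) and repeat 2 (vertical); the dashed line marks equal values. The 151 genes called higher and the 757 called lower sit at the ends of a narrow diagonal cloud, and the low end reaches further from 0.

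Of the 12 highest called genes of at least median abundance, 3 code for arabinogalactan proteins and 3 for members of the lipid-transfer protein superfamily. AGP4, AGP9 and AGP21 are arabinogalactan proteins, heavily glycosylated proteins of the cell surface. AGP4 (AT5G10430) had 2940 and 3500 CPM in ribosome-protected dark libraries, against 937 and 840 CPM in mRNA dark libraries, a log2 occupancy of 1.86 ± 0.35 (SE, n = 2 libraries per group here and below; edgeR adjusted p = 0.0426). AGP9 had 1225 and 1552 CPM ribosome-protected, against 426 and 343 CPM in mRNA (1.85 ± 0.36, edgeR adjusted p = 0.0445). AGP21 had 656 and 1112 CPM against 222 and 249 CPM (1.91 ± 0.38, edgeR adjusted p = 0.0449). For all 3 genes both ribosome-protected libraries stood above both mRNA libraries. AGP4 and AGP21 lie opposite another locus. The 3 members of the lipid-transfer protein superfamily, whose typical members are small, disulfide-rich and secreted, were AT2G10940 (1.83 ± 0.37), AT3G18280 (1.80 ± 0.20) and AT4G33550 (1.68 ± 0.22). Of the other 6, 4 were TED7, a protein of differentiating vessel elements (29.4 and 47.2 CPM against 7.74 and 7.92 CPM; 2.29 ± 0.35), the membrane protein DMP2 (1.90 ± 0.25), the defensin-like LCR68 (1.78 ± 0.33) and the glutaredoxin GRXC2 (1.66 ± 0.19). Adjusted p for the 7 genes after AGP21 ran from 0.0266 to 0.0459 in edgeR.

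The remaining pair, AT1G31835 and AT2G35750, both uncharacterized, stood above the rest. AT1G31835 had 153 and 37.5 CPM ribosome-protected, against 1.69 and 1.62 CPM in mRNA (5.83 ± 1.07, edgeR adjusted p = 0.0404). AT2G35750 had 116 and 57.8 CPM against 2.37 and 7.54 CPM (4.12 ± 0.78, edgeR adjusted p = 0.0436). Each overlaps another locus on its own strand, so reads of the overlapping transcripts cannot be told apart.

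The genes of lowest occupancy were more varied. PLDGAMMA2 (AT4G11830), a phospholipase D, had 3.12 and 1.69 CPM in ribosome-protected dark libraries (14 and 24 reads), against 44.5 and 68.5 CPM in mRNA dark libraries, a log2 occupancy of -4.64 ± 0.40 (edgeR adjusted p = 0.0266). LARP6b, a La-related RNA-binding protein with the most reads of the 12 lowest, had 65.3 and 29.8 CPM ribosome-protected, against 460 and 416 CPM in mRNA (-3.21 ± 0.43, edgeR adjusted p = 0.0272). AT1G53780, annotated as a proteasome ATPase, had 8.24 and 1.97 CPM against 94.9 and 92.4 CPM (-4.30 ± 0.69, edgeR adjusted p = 0.0332). No ribosome-protected library reached any mRNA library for these 3 genes. CPUORF7 (AT2G31280), a bHLH factor gene whose symbol refers to a conserved peptide uORF, had 8.02 and 3.94 CPM against 57.4 and 43.1 CPM (-3.12 ± 0.37, edgeR adjusted p = 0.0266). The other 8 were AT5G21020 (-4.52 ± 0.50), AT4G34881 (-4.27 ± 0.66), AT5G28919 (-3.56 ± 0.55), the RWD-domain gene AT3G60300 (-3.52 ± 0.49), the zinc finger gene AT5G25560 (-3.27 ± 0.32), the deaminase EMB2820 (-3.20 ± 0.40), the formyltetrahydrofolate deformylase AT5G47435 (-3.16 ± 0.39) and AT2G01100 (-3.15 ± 0.29). AT5G25560 and AT2G01100 overlap a locus on their own strand, and AT4G34881, AT5G28919 and AT5G47435 one on the other. Strand use in counting is not given, so the division of reads is uncertain for these genes and for AGP4 and AGP21. The same holds for AT2G39430, PER64, AT2G02510, AT1G29450, AT1G48650, BBX17 and CHLM below, which lie opposite another locus. It holds as well for CEV1, AT5G60390, BZIP61, PORB and CAB1, also opposite another locus, and for DWF1, which overlaps one on its own strand. The 880 members that overlap a locus on their own strand had medians of -0.22 and -0.12 and the 4295 opposite another locus -0.10 and 0.01, against -0.02 and 0.07 for the 10907 that overlap none.

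**Figure D2:**
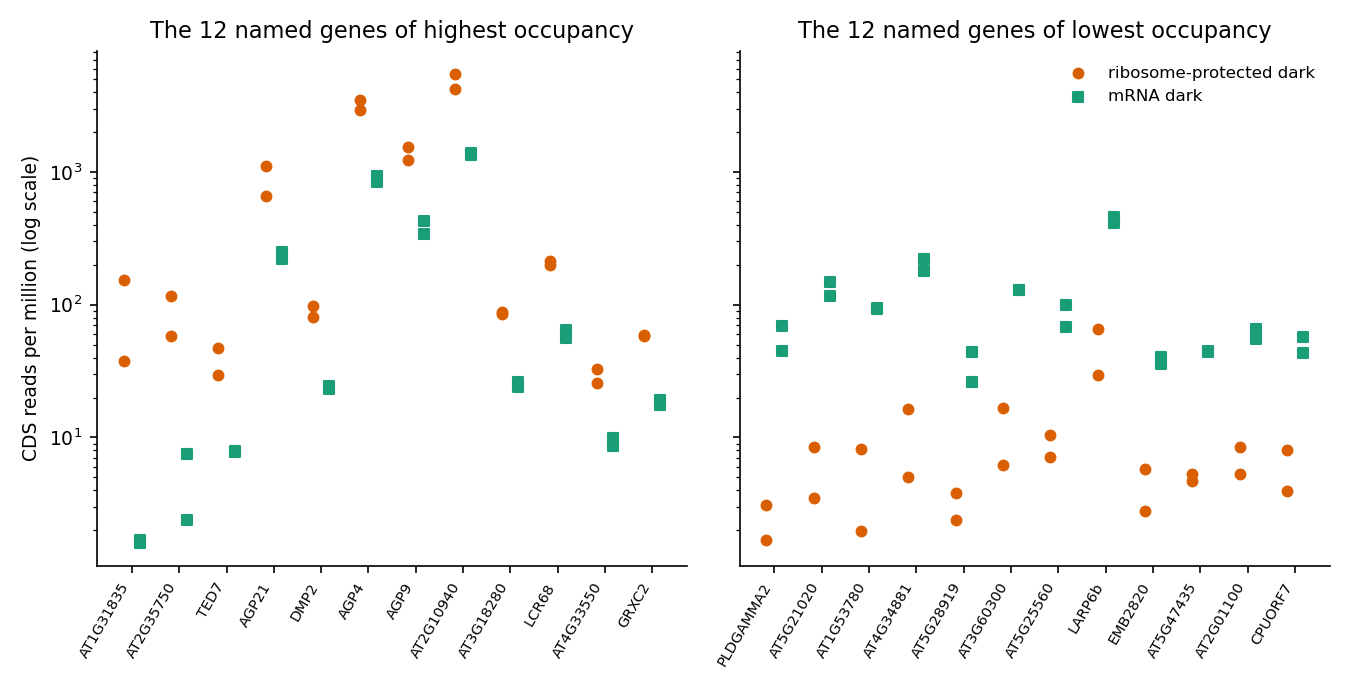
CDS reads as CPM (log scale) of the 12 highest and the 12 lowest called genes of at least median abundance in the dark libraries; circles are the 2 ribosome-protected libraries and squares the 2 mRNA libraries. Both circles lie above both squares in all 12 highest genes and under them in all 12 lowest.

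Start codon surroundings are shown for 5 genes picked as examples of both ends after their values were seen, 15 bases before the annotated start codon and 15 from it on, with the ATG in capitals (RefSeq, TAIR10.1, 5′ to 3′).
AGP9: aaagcaaaagcaaaaATGgctcgatctttc
DMP2: aagaagaacaaaaaaATGtcgaaaacattc
LCR68: ctatccctctcaaaaATGaagctctctgtg
PLDGAMMA2: gtttataacgagactATGtcaatgggagga
NAC082: ttggattcttcgccaATGgggaaaactcaa
These windows lie in exons at chr2:6399664-6399693 (AGP9, plus strand), chr3:7592248-7592277 (DMP2, minus), chr2:540056-540085 (LCR68, plus), chr4:7119669-7119698 (PLDGAMMA2, minus) and chr5:2894694-2894723 (NAC082, minus). The first 3 have high occupancy, an A at position -3 and no ATG in the leader. PLDGAMMA2 has an A at -3 as well and NAC082 a C, so this base does not part the ends gene by gene. Of the 12 highest genes 6 have A at -3, and of the 10 lowest with a start window read 5 do.

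The leaders of low-occupancy genes often hold an ATG before the main one. The first such ATG of 3 of them is shown in capitals, with 12 bases before it and 15 after.
PLDGAMMA2 upstream: gacgagtctccgATGtagaaacgaggaaga
CPUORF7 upstream: tgtctctgagtgATGcagagatcaactgtt
NAC082 upstream: gttgcacaccagATGtctgttgatctctgc
They lie in the 5′ leader at chr4:7121138-7121167 (minus strand), chr2:13339125-13339154 (plus) and chr5:2895026-2895055 (minus), and 1006, 541 and 335 bases ahead of the start codon in the spliced transcript. In PLDGAMMA2 the ATG is followed at once by a stop codon, in CPUORF7 the frame runs 14 codons to a stop, and in NAC082 37 codons, each ending before the main start. PLDGAMMA2 has 15 ATGs in its 1096-base leader, CPUORF7 4 in 591 bases and NAC082 2 in 465 bases. NAC082, a NAC factor of the ribosomal stress response with a known uORF, had 14.7 and 8.92 CPM ribosome-protected, against 70.8 and 68.2 CPM in mRNA (-2.58 ± 0.31, edgeR adjusted p = 0.0266).

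Over the 14994 members whose deposited leader could be read from the reference, 5355 (35.7%) hold an ATG on the sense strand of the leader. Of the 14994, 3426 have a reference leader of the deposited length. In the others the reference leader is longer and its last bases, up to the deposited length, were read. Median log2 occupancy was lower with each step in the number of upstream ATGs, described here without a test since genes are not replicates. It was 0.13 and 0.25 (repeats 1 and 2) for 9639 genes with 0, -0.16 and -0.13 for 2689 genes with 1, -0.37 and -0.30 for 1278 genes with 2, and -0.69 and -0.71 for 483 genes with 5 or more. Among the 3426 alone, a subset chosen after seeing the data, medians were 0.06 and 0.20 with 0, -0.18 and -0.12 with 1, -0.33 and -0.25 with 2, -0.27 and -0.29 with 3, and -0.56 and -0.63 with 5 or more. The order held in each class of leader length from 1 to 400 bases. Over 400 bases, genes with 0 and with 1 ATG had the same median in repeat 1 (-0.41), with -0.71 at 2 or more. In leaders of over 100 and up to 200 bases, the medians of genes with 0, 1, and 2 or more ATGs were 0.16, -0.12 and -0.33 in repeat 1 and 0.28, -0.05 and -0.27 in repeat 2. It held in every class of coding length too, from 0.07 with against 0.81 without an ATG under 300 bases to -0.60 with against -0.32 without at 2400 bases and over, in repeat 1. Of the called genes with a readable leader, 29 of 148 called higher (19.6%) and 375 of 634 called lower (59.1%) had an upstream ATG. Single genes did not all follow this. Of the 12 highest, AT1G31835, AT2G35750, TED7, AT4G33550 and GRXC2 have 2, 1, 1, 1 and 2 such ATGs, and of the 12 lowest, AT1G53780, LARP6b, AT5G47435 and AT2G01100 have 0.

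The base at -3 went with smaller differences. The 7375 genes with A there had medians of 0.09 and 0.20, and genes with C, G or T lay between -0.19 and -0.03. A stood at -3 in 62.8% of genes called higher, 36.9% of genes called lower and 49.2% of all. Leaders of genes called higher were also richer in A, with a median of 35.3%, against 26.1% in genes called lower and 29.4% in all. The rank correlation of leader A content with occupancy was 0.24 and 0.23 across 14395 genes with at least 20 leader bases, which share the same libraries. Here base composition, ATG number and length vary together, and their separate parts were not tested.

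Coding length showed the widest range of medians. The 447 genes under 300 bases stood at 0.71 and 1.04 and the 1936 genes of 2400 bases and over at -0.49 and -0.40, with 0.08 and 0.16 for 600 or more and under 1200 bases. The share called higher was largest below 300 bases (32 genes, 7.16%) and was 0 at 2400 bases and over. The share called lower was largest at 2400 and over (190 genes, 9.81%), but it was 4.25% (19 genes) below 300 bases, above the 1.41% of the next class. Long leaders stood low, at -0.66 and -0.64 over 400 bases against 0.07 and 0.18 for 1 to 100 bases. The 223 genes with an annotated leader of 0 bases were as low (-0.66 and -0.71). For trailers the medians were highest over 200 and up to 400 bases (0.01 and 0.12) and lower over 400 (-0.36 and -0.29). The rank correlation of occupancy with mRNA abundance was 0.01 and 0.06 across 16082 genes. Since mRNA reads enter both measures, these values cannot show whether occupancy goes with abundance. Genes counted on a model other than the first stood at -0.19 and -0.19, against -0.04 and 0.07 for first models.

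**Figure D3:**
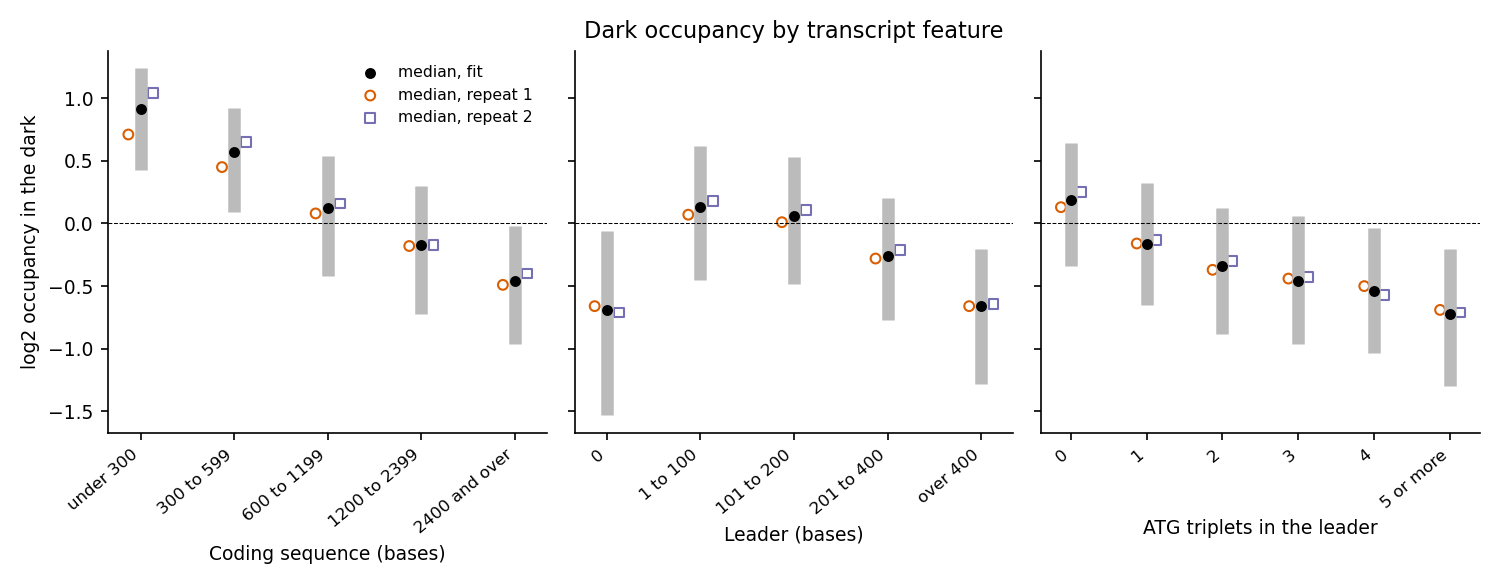
Median log2 occupancy (vertical) by coding length, leader length and number of ATGs in the leader; bars are quartiles of the fit, filled points its median, open circles repeat 1 and open squares repeat 2. Medians fall from 0.91 to -0.46 along coding length and from 0.19 to -0.72 along ATG number.

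Reads in the leader give a second readout. Among 13288 members with at least 20 ribosome-protected reads over leader and CDS in each repeat, the leader held a median of 0.750 and 1.18% of these reads in ribosome-protected libraries, against 4.65 and 4.64% in mRNA libraries. Without an upstream ATG the medians were 0.297 and 0.745% ribosome-protected, against 3.97 and 3.88% in mRNA. With 5 or more they were 5.82 and 9.03% ribosome-protected, against 10.3 and 11.1% in mRNA. Both shares were thus larger in leaders with many ATGs, and the ribosome-protected one stayed below the mRNA one. Such leaders are also longer. Over 400 bases, 497 genes had 2 or more ATGs and 30 had 0, against 155 and 5936 at 1 to 100 bases. The shares were not split by leader length, so the part of length was not tested. Across genes the ribosome-protected leader share had a rank correlation of -0.25 and -0.21 with occupancy, against 0.06 and 0.08 for the mRNA share. CDS reads enter both measures, so part of such a relation is built in.

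**Figure D4:**
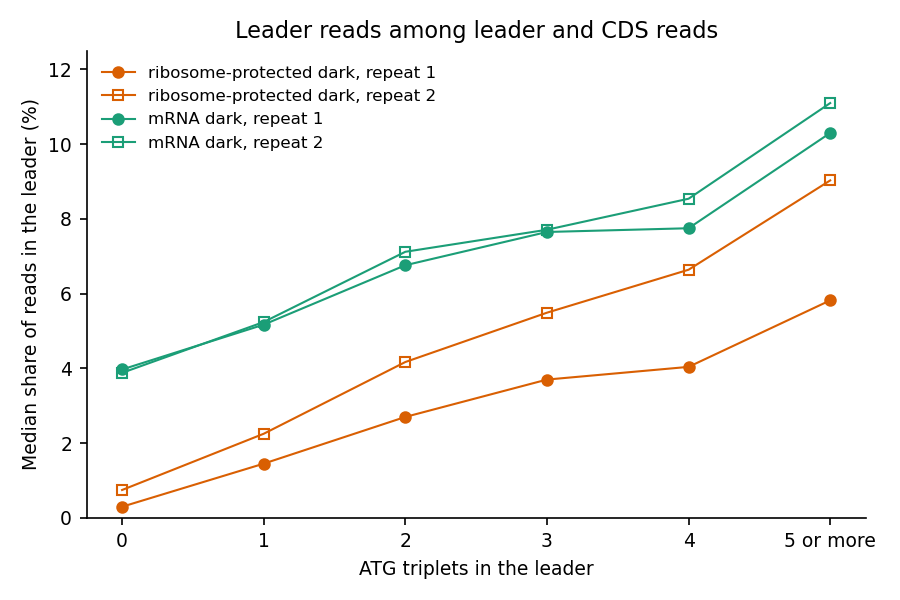
Median share of leader reads among leader and CDS reads (vertical, percent) by number of ATGs in the leader, for the 2 ribosome-protected and the 2 mRNA libraries of dark seedlings. Ribosome-protected shares lie below mRNA shares in every class, and both are larger in classes with more ATGs. Classes are not split by leader length.

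In single genes the leader could hold most footprints, at either end of the range. AT2G35750, with high occupancy and an overlapping locus, had 88.8 and 91.2% of its ribosome-protected reads in the leader, against 60.6 and 48.6% of mRNA reads. In PLDGAMMA2, 27 of 41 and 67 of 91 ribosome-protected reads lay in the leader (65.9%, Wilson interval 50.5 to 78.4, and 73.6%, 63.7 to 81.6), against 38.2 and 36.5% of mRNA reads. CPUORF7 had 26.5% (16.2 to 40.3) and 52.1% (43.2 to 61.0), against 15.1 and 17.3% of mRNA reads. In NAC082 the shares were 33.3% (24.8 to 43.1) and 42.3% (35.9 to 48.9), against 20.7 and 20.9%. In VTC2 they were 20% (15.7 to 25.1) and 28.3% (25.2 to 31.7), against 21.8 and 21.2%, so only repeat 2 stood above mRNA. AGP9 showed the reverse, with 0.290 and 0.383% of ribosome-protected reads against 5.61 and 6.32% of mRNA reads. Over all, 106 members had more than 20% of ribosome-protected reads in the leader in both repeats, and 1 of them was among the 8191 genes without an upstream ATG.

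Genes with a uORF known from the literature were mostly absent from the members. Of 23 such loci, 7 qualified, with a median log2 occupancy of -1.23 and all 7 below the member median (-0.01). NAC082 was the only call without the block, and 4 were called lower with it. VTC2, an enzyme of ascorbate synthesis, had 49.9 and 37.0 CPM ribosome-protected, against 104 and 99 CPM in mRNA (-1.23 ± 0.27, edgeR adjusted p = 0.0573, 0.00127 with the block). SAMDC, GBF6 (bZIP11) and SAC51 are listed at 0 CDS reads in all dark libraries, so they gave no value, and a listed 0 does not show that a gene is silent.

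Gene families were read by the number of members called and their median, beside the 151 higher and 757 lower of 16082 and the median of -0.01 for all. Counts with the block stand beside 3524 higher and 3885 lower (21.9 and 24.2% of all members). These 46 lists have no test of their own. Wall and surface families come first. The arabinogalactan, lipid-transfer, dirigent, peroxidase and CASP lists were added after these values were seen, so their high place was known when they were chosen and is no independent result. Of 32 arabinogalactan proteins 6 were called higher and 0 lower, with medians of 1.20 and 1.62 in the repeats, and AGP1 is a further example (1.62 ± 0.28, edgeR adjusted p = 0.0382). The counts were 7 of 32 for lipid-transfer proteins (medians 1.37 and 1.40) and 3 of 13 for dirigent-like proteins, which guide phenol coupling (1.38 and 1.38), among them DIR6 (1.62 ± 0.22) and AT2G39430 (1.47 ± 0.26). Of 30 class III peroxidases 4 were called higher (1.05 and 1.04), with AT5G66390 (1.47 ± 0.27) and PER64 (1.36 ± 0.28), and 4 of 5 CASP proteins, which scaffold the Casparian strip (1.44 and 1.35), with CASP2 (1.36 ± 0.22) and CASP4 (1.18 ± 0.20). Expansins and xyloglucan endotransglucosylases, which loosen or remodel the wall, had 2 of 39 called (0.92 and 0.96), namely XTR6 (1.32 ± 0.25) and EXPA6 (1.08 ± 0.22). In these 6 lists 0 members were called lower. With the block the counts called higher were 25, 29, 11, 27, 5 and 27, and 1 expansin or XTH gene was called lower. Cellulose synthases, large membrane enzymes of the same wall, had 0 calls in edgeR among 8 (3 higher with the block), medians of 0.16 and 0.35, and CEV1 at 0.04 ± 0.35 (edgeR adjusted p = 0.964).

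Further lists had medians above that of all members, most with few calls without the block. Of 36 histones 3 were called higher (medians 0.95 and 1.15), with AT5G10980 at 1.13 ± 0.22 and the H2B gene HTB4 at 1.17 ± 0.24, although near-identical histone copies make the division of reads uncertain. SAUR proteins, early auxin-response proteins, had 2 of 40 called higher (0.79 and 0.86), AT1G29450 (1.07 ± 0.21) and AT1G29500 (1.06 ± 0.22), which also have close copies. Of 75 cytosolic ribosomal proteins 1 was called higher (0.57 and 0.83), AT5G20160 (1.12 ± 0.19). Among 36 proteasome subunits PAC1 was called higher (1.01 ± 0.20) and AT1G53780 lower, with medians of 0.51 and 0.70. The respiratory chain had 1 of 45 called higher, AT2G02510 (1.32 ± 0.25), and medians of 0.51 and 0.81. Under the block 32 histones, 24 SAUR, 47 cytosolic ribosomal, 27 proteasome and 26 respiratory chain members were called higher. Called lower with it were 0, 3, 0, 2 and 2. Aquaporins (25 members, 1.06 and 0.93), tubulins and actins (21, 0.42 and 0.82), vacuolar ATPase subunits (17, 0.39 and 0.69) and Aux/IAA repressors (24, 0.39 and 0.55) had 0 calls in edgeR without the block, and 22, 13, 9 and 12 members called higher with it, beside 1 aquaporin and 2 Aux/IAA genes called lower. TIP2, a tonoplast aquaporin, had 28934 and 18592 CPM ribosome-protected, against 12065 and 7470 CPM in mRNA (1.28 ± 0.50, edgeR adjusted p = 0.179, 0.00476 with the block). Its occupancy was 1.26 in repeat 1 and 1.32 in repeat 2, and its SE with the block was 0.24. IAA7, VHA-A and ACT2 had values of 0.95 ± 0.27, 0.77 ± 0.32 and -0.16 ± 0.55 with edgeR adjusted p of 0.0904, 0.200 and 0.897. ACT2 lay at -0.79 in repeat 1 and 0.67 in repeat 2. The 3 seed reserve genes (OLEO3 at 0.85 ± 0.75) and 4 mitochondrial ribosomal proteins (MRPL11 at 0.13 ± 0.25) had 0 calls too in edgeR without the block, and 3 and 1 called higher with it.

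Of the large families and RNA-processing lists, 5 had medians below that of all members. The disease resistance list was added after its values were seen. Of 171 pentatricopeptide repeat proteins, which process organelle RNA, 31 were called lower and 0 higher (medians -0.92 and -0.90). AT5G04810 had 24.5 and 12.1 CPM ribosome-protected, against 164 and 147 CPM in mRNA (-3.10 ± 0.39, edgeR adjusted p = 0.0266), and AT1G19720 was at -1.68 ± 0.23. Of 82 disease resistance proteins of the nucleotide-binding class 18 were called lower (-0.74 and -1.08), with AT5G40910 at -2.96 ± 0.29, and of 127 F-box proteins 15 (-0.52 and -0.66), with AT3G23880 (-1.74 ± 0.27) and AT2G17020 (-1.37 ± 0.22). RNA helicases had 8 of 59 called lower (-0.44 and -0.44), including AT2G35920 (-1.79 ± 0.22) and AT1G48650 (-1.20 ± 0.21). Splicing factors had 6 of 34 (-0.48 and -0.28), including AT1G60200 (-2.49 ± 0.27) and AT4G36980 (-2.41 ± 0.30). In none of these 5 lists was a member called higher without the block, and with it 94, 48, 61, 26 and 15 were called lower against 1, 0, 3, 3 and 2 higher. The median coding length was 1935 bases for pentatricopeptide repeat proteins and 3133.5 for disease resistance proteins, against 484.5 for arabinogalactan and 403.5 for lipid-transfer proteins. The part of length in these list medians was not tested.

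**Figure D5:**
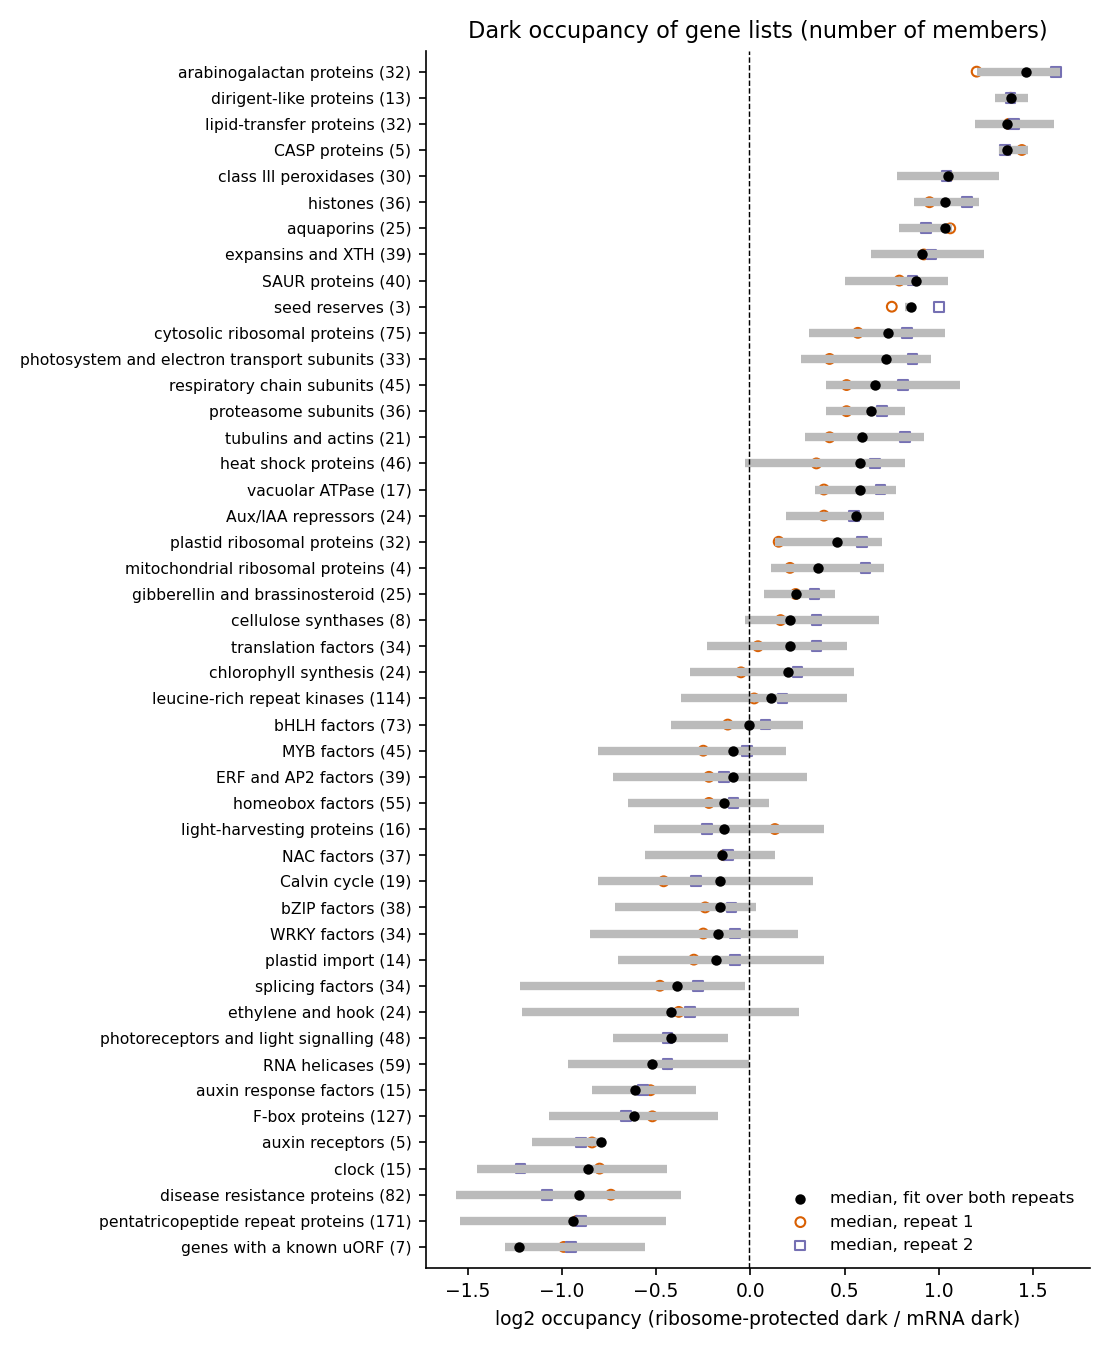
Median log2 occupancy in the dark (horizontal) of 46 gene lists with the number of members; bars are quartiles, filled points the fit, open circles repeat 1 and open squares repeat 2, and the dashed line is the median of all members. Wall and surface families other than cellulose synthases lie above 0.9, and pentatricopeptide repeat, disease resistance, clock and uORF genes below -0.8.

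Light signalling genes had a median below that of all members. Of 48 photoreceptor and light signalling genes 4 were called lower and 0 higher (medians -0.44 and -0.44; 18 lower and 1 higher with the block). BBX17, a B-box factor, had 10.5 and 13.7 CPM ribosome-protected, against 56.1 and 49.2 CPM in mRNA (-2.11 ± 0.31, edgeR adjusted p = 0.0315). The regulators of the dark state were near the middle. PHYA, the far-red photoreceptor abundant in the dark, had 1217 and 898 CPM against 1746 and 963 CPM (-0.36 ± 0.43, edgeR adjusted p = 0.664). COP1, the ubiquitin ligase that represses photomorphogenesis, was at 0.01 ± 0.20, PIF3, a factor that maintains skotomorphogenesis, at -0.40 ± 0.31, and the blue-light receptor CRY1 at -0.38 ± 0.42 (edgeR adjusted p from 0.470 to 0.985). HY5, the bZIP factor that promotes photomorphogenesis, had 8.69 and 7.45 CPM against 13.1 and 12.1 CPM (-0.65 ± 0.23, edgeR adjusted p = 0.154, 0.0291 with the block). Clock genes had medians of -0.80 and -1.22, with 2 of 15 called lower (10 lower and 1 higher with the block). GI was at 0.06 ± 0.63.

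In auxin signalling, list medians of receptors and response factors lay below 0 and those of repressors and SAUR proteins above it. The 5 auxin receptors had medians of -0.84 and -0.90, with AFB2 called (70.8 and 70.6 CPM against 157 and 172 CPM; -1.22 ± 0.21, edgeR adjusted p = 0.0386) and all 5 called lower with the block. The 15 auxin response factors had medians of -0.53 and -0.57, with 0 calls without the block in edgeR and 7 lower with it, and ARF2 at -0.32 ± 0.39. Of 24 ethylene and hook genes 3 were called lower (-0.38 and -0.32; 11 lower and 1 higher with the block). Among the 3 was CTR1, the kinase that holds ethylene signalling off (-1.19 ± 0.21, edgeR adjusted p = 0.0384). Gibberellin and brassinosteroid genes had 0 calls without the block in edgeR among 25 (0.24 and 0.34; 6 higher and 1 lower with it), with DWF1 at 0.23 ± 0.38.

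Transcription factor families had medians from -0.25 to 0.08 across both repeats. All but the bHLH factors lay slightly below the member median in both repeats. The bHLH factors were at -0.12 and 0.08, against -0.05 and 0.04 for all members. Called lower were 5 of 73 bHLH factors, with BIM1 (-1.55 ± 0.22) and CPUORF7, 6 of 45 MYB factors, with MYB51 (-1.21 ± 0.24) and MYB59 (-2.18 ± 0.45), and 3 of 55 homeobox factors, with PHV (-1.62 ± 0.26) and ANL2 (-1.66 ± 0.31). The counts were 2 of 38 bZIP, 1 of 39 ERF and AP2, 1 of 37 NAC and 0 of 34 WRKY factors, and 0 members of the 7 families were called higher. With the block, 11 bHLH, 13 MYB, 13 homeobox, 13 bZIP, 10 ERF and AP2, 5 NAC and 12 WRKY factors were called lower and 11, 4, 1, 2, 3, 1 and 1 higher. Of all members, 24.2% were called lower and 21.9% higher with the block, and the families were not tested against these shares. Leucine-rich repeat kinases had 4 of 114 called lower (0.02 and 0.17), and 26 higher and 24 lower with the block. BRI1 (0.01 ± 0.35) and WRKY25 (0.31 ± 0.73) were not called. RAP2.12 (0.76 ± 0.39) and BZIP61 (0.52 ± 0.24) were called with the block (edgeR adjusted p = 0.0127 and 0.0462) and not without it. Translation factors had 0 calls among 34 without the block in edgeR (0.04 and 0.35; 8 higher and 5 lower with it), and AT5G60390, an elongation factor gene with near-identical copies, stood at 0.83 ± 0.57. Heat shock proteins had 1 of 46 called lower, AT5G02480 (-1.77 ± 0.26), against list medians of 0.35 and 0.66. The block gave 19 higher and 7 lower among the 46.

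Nuclear genes for the plastid lay on both sides of 0 in the dark. Photosystem and electron transport subunits stood at 0.42 and 0.86 (33 members, 0 calls in edgeR without the block, 14 higher and 1 lower with it) and plastid ribosomal proteins at 0.15 and 0.59 (32 members, 0 calls in edgeR without the block, 4 higher and 1 lower with it). Light-harvesting proteins (16; 0.13 and -0.23), Calvin cycle enzymes (19; -0.46 and -0.29) and plastid import proteins (14; -0.30 and -0.08) stood lower, with 0 calls in edgeR without the block and 4, 6 and 5 lower with it, against 1, 0 and 2 higher. Among 24 chlorophyll synthesis genes (-0.05 and 0.25; 5 lower and 3 higher with the block), CHLM, the magnesium-protoporphyrin methyltransferase, was called lower. CHLM had 32.7 and 42.9 CPM ribosome-protected, against 107 and 99 CPM in mRNA (-1.44 ± 0.28, edgeR adjusted p = 0.0443). PORA had 100 and 882 CPM ribosome-protected, against 83.3 and 563 CPM in mRNA (0.61 ± 1.16), and PORB was at 0.53 ± 1.07, each with repeat 2 far above repeat 1 in both kinds of library. Occupancy in repeats 1 and 2 was 0.27 and 0.65 for PORA and 0.23 and 0.58 for PORB. With the block their SEs were 0.48 and 0.53. CAB1 (LHCB1.3), which has near-identical copies, had 45.2 and 136 CPM against 69.8 and 496 CPM (-1.64 ± 0.98, edgeR adjusted p = 0.354, 0.0438 with the block). RBCS1A (0.07 ± 1.00), PSBO1 (0.14 ± 0.32), LHCB4.1 (-0.43 ± 0.32), CLPC1 (-0.77 ± 0.45) and AT2G43030 (0.10 ± 0.47) were not called.

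Whether dark occupancy differed from occupancy after light was asked with the interaction in the same fit. In edgeR, 0 of 16082 members were called, without or with the block (0% of all genes tested). In edgeR without the block, 229 had an unadjusted p under 0.05, of which 42 were higher and 187 lower in the dark. These 229 are a smaller share of the members than 0.05, so 0 calls do not show equal occupancy in dark and light. DESeq2 called 15 members, 2 higher and 13 lower in the dark (0.0142 and 0.0925% of genes with an adjusted p). In log2 occupancy, dark and light of 1 repeat correlated across the members at rank correlations of 0.788 in repeat 1 and 0.868 in repeat 2. Across repeats the values were 0.731 for dark repeat 1 with light repeat 2 and 0.796 for dark repeat 2 with light repeat 1, below the 0.859 between the dark repeats and the 0.813 between the light ones. Of the genes called in the dark, 15 of 151 called higher and 373 of 757 called lower were also called after light (9.93 and 49.3% of the dark lists, 100 and 82.3% of the light lists of 15 and 453). Over all genes tested, 0.101% were called higher and 2.36% lower after light.

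Of the 46 lists, Calvin cycle and light-harvesting genes had the largest median differences between dark and light, -0.80 and -0.79 on the log2 scale. Calvin cycle genes had medians of -0.46 and -0.29 in the dark, against 0.61 and 0.58 after light, and 19 of 19 members were lower in the dark in both repeats, against 28.4% of all members. Light-harvesting proteins had 0.13 and -0.23 in the dark, against 0.69 and 0.70 after light (12 of 16 lower in both repeats), and chlorophyll synthesis -0.05 and 0.25 against 0.52 and 0.38 (20 of 24). Plastid ribosomal proteins had 24 of 32 lower in both repeats and plastid import 9 of 14. Cytosolic ribosomal proteins had 0.57 and 0.83 in the dark, against 0.59 and 0.90 after light, with 25 of 75 lower in both repeats. On the other side, arabinogalactan proteins had 1.20 and 1.62 in the dark, against 0.67 and 1.19 after light (30 of 32 higher in both repeats, against 39.3% of all members), and SAUR proteins 0.79 and 0.86 against 0.23 and 0.42 (27 of 40). In edgeR 0 members of these lists passed the test of the difference. CHLM was at -1.71 and -1.21 in the dark, against 0.33 and 0.17 after light, a difference of -1.69 ± 0.39 that edgeR did not call (adjusted p = 1) and DESeq2 did (adjusted p = 0.0337). Of the 14 other genes DESeq2 called, singled out after their values were seen, the antenna gene LHCB4.2 was at -1.28 and -0.92 in the dark, against 0.76 and 0.76 after light (DESeq2 adjusted p = 0.027). The pentatricopeptide repeat gene AT1G19720 was at -1.49 and -1.85 in the dark, against 0.02 and -0.22 after light (DESeq2 adjusted p = 0.044).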

How the data were processed

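Members and gene lists were chosen with earlier results of these data known, and the arabinogalactan, lipid-transfer, dirigent, peroxidase, CASP, disease resistance and NAC lists were added after these values were seen. The deposited tables hold, per the file headers, whole-number read counts per gene in leader, CDS and trailer. RPKM values by region stand beside them, computed by the authors per the file headers. Reads divided by length and RPKM gave each library's sum of counts for 100% of genes with a value (tolerance 0.001), and the RPKM served for that check only. A further 16 columns of RPKM were not used. The build was TAIR 10, per the submitters' processing notes. Aligner, counter, strand setting and treatment of multiply mapped reads were not given in the sources used here.

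CDS counts of 27415 genes were filtered with filterByExpr (19823 left), scaled by TMM (factors 0.824 to 1.26) and fitted with edgeR 4.0.16 (R 4.3.3; quasi-likelihood, 1 mean for each of 4 groups over 8 libraries, prior count 2, two-sided, Benjamini-Hochberg over all tested genes, threshold 0.05). The fit was tested on simulated data, but no result of that test is given here, so no conclusion is drawn from it. CPM are scaled to effective library size, and occupancy per repeat is the difference of log2 CPM. An exact permutation of 2 against 2 cannot go below 0.333.

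Named genes were first taken from called members of 1 sign in both repeats and of at least median mean dark abundance (18.8 CPM). These were the 12 highest and 12 lowest (of 115 and 330). Then, per list, came the 2 called members of smallest adjusted p or the most abundant member. Last, 13 genes were chosen by name, as regulators, uORF genes or genes for plastid proteins (PORA, PORB, RBCS1A and CAB1). The repeats were paired by number, as the comparison is defined. After subtracting group means, libraries of 1 number correlated at 0.575 to 0.806 across genes (0.735 for both dark kinds), but the labels name no shared culture or day. Descriptions, overlaps and sequences came from RefSeq TAIR10.1, whose CDS length equalled the deposited one for 15689 of 16082 members. Leaders were read as the last deposited number of bases upstream of the start. Alternatives were RLE scaling, no filter, the replicate block, the 4 dark libraries, nuclear genes only, other read minimums, DESeq2 1.42.0 and leaving out each library.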

Additional observations from a re-analysis of the deposited data

Results flagged for a closer look

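In 4 genes of the set named by rule, both repeats had occupancy below 0 in the dark and above 0 after light. LHCB4.2, described above from the DESeq2 calls and not in that set, had the same pattern. LHCB4.1 was at -0.62 and -0.25 in the dark, against 0.69 and 0.64 after light, a dark minus light difference of -1.09. CHLM was at -1.71 and -1.21 against 0.33 and 0.17 (-1.69), CLPC1 at -1.04 and -0.35 against 0.34 and 0.98 (-1.38) and CAB1 at -0.63 and -1.87 against 0.38 and 0.84 (-2.32). The difference itself was tested in edgeR and 0 of the 4 passed, while DESeq2 called CHLM among the 4, and also LHCB4.2. Groups of 2 libraries are too small for a check on single outlying samples.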

How the results depend on the processing

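Calls among members numbered 151 higher and 757 lower. Without the filter on low counts 66 were higher, with the replicate block 3524 and 3885, with the 4 dark libraries and a replicate block 4216 and 4416, with these 4 and no block 0 and 0, and with DESeq2 993 and 1618. Leaving out each of the 8 libraries gave 0 to 0 in both directions, where a lone library was assumed to vary like the other groups. None of the 908 called genes changed sign under any of these. RLE scaling, nuclear genes only and minimums of 10 or 200 reads stayed within 1.5 times. The dark against light count was 0 throughout except 15 with DESeq2.

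The median of coding sequences under 300 bases exceeded that of 2400 and over by 1.37, by 1.20 in repeat 1 alone and by 1.06 to 1.58 leaving out single dark libraries. Lists above the member median numbered 25 of 46, and 23 to 28 otherwise. At 100 reads the leader correlation was -0.31 and -0.25. Of 89 named genes, these uncalled ones changed sign on leaving out a library: ACT2 (-0.64 to 0.45), AT2G43030 (-0.66 to 0.59), BRI1 (-0.22 to 0.18), CAB1 (-2.65 to 0.38), CEV1 (-0.18 to 0.23), COP1 (-0.14 to 0.15), GI (-0.77 to 0.88), MRPL11 (-0.13 to 0.36), OLEO3 (-0.18 to 1.43), PHYA (-0.75 to 0.06), PORA (-1.69 to 2.58), PORB (-1.55 to 2.32), PSBO1 (-0.12 to 0.36), RBCS1A (-1.87 to 1.51) and WRKY25 (-0.56 to 1.06). RBCS1A was also at -0.04 with the block (-0.13 in 4 libraries), AT2G43030 at -0.00 (-0.01), and without the filter COP1 was at -0.01 and BRI1 at -0.00. The cause was not tested. Depth of ribosome-protected repeat 1 limits genes of few footprints.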
